A study of Lytechinus variegatus with 8 samples.

Results

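Tbx2/3 (gene LOC446194) was followed through the spines of the green sea urchin Lytechinus variegatus as 1 gene of 26814 in the deposited count table. It was chosen by its higher read counts in secondary than in primary spines, so its levels in that comparison are given as a description, without a test. Around it were set the 10 other genes whose deposited description holds the words T-box or brachyury, and 12 ligand genes of the BMP and TGF-beta family.

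Sea urchins bear long primary spines and shorter secondary spines, each with a mineral core under a ciliated epidermis. Messenger RNA was sequenced from 4 wild-caught, wild type animals of the white-and-green color morph. Each animal gave 1 library pooled from 50 primary spines and 1 pooled from 100 secondary spines, so spine type and the number of spines pooled changed together and cannot be told apart. Nothing was knocked out or treated, and the age and sex of the animals are not given in the sources used here. The 8 libraries held 9252184 to 10902546 counted reads.

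Tbx2/3 belongs to the T-box family of transcription factors, which bind DNA through a shared domain, and its vertebrate relatives Tbx2 and Tbx3 act mostly as repressors of transcription. In sea urchin embryos tbx2/3 is expressed on the aboral (dorsal) side, where it lies downstream of the ligand BMP2/4, a secreted protein of the BMP family. BMP ligands bind paired type I and type II receptors, which pass the signal on through Smad proteins, and secreted antagonists such as chordin hold it in check.

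Tbx2/3 was detected in every library and was several times higher in secondary spines. Primary libraries 1 to 4 held 54, 58, 41 and 68 of its reads, and secondary libraries 1 to 4 held 422, 277, 403 and 409. In CPM (reads scaled to a common library size by the TMM method) the levels were 5.81, 5.78, 4.32 and 7.26 in primary spines. In secondary spines they were 40.9, 28.2, 40.0 and 35.9 CPM. The lowest secondary library, from animal 2, lay well above the highest primary library, from animal 4, so the groups did not overlap. The same held, higher in secondary spines, for 9.47% of all tested genes. The mean was 5.79 ± 1.20 CPM over primary libraries and 36.3 ± 5.81 CPM over secondary ones (SD, n = 4).

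The edgeR fit gave a log2 fold change of 2.64 ± 0.21 (secondary minus primary, standard error), which describes the difference that chose the gene. A further 210 of the 16788 tested genes had a fold change at least as large. The direction was the same in all 4 animals, and the size was not equal among them. The secondary to primary ratio was 7.04 in animal 1, with a 95% interval of 5.30 to 9.53. It was 4.87 in animal 2 (3.66 to 6.58), 9.26 in animal 3 (6.70 to 13.1) and 4.95 in animal 4 (3.82 to 6.49). These exact binomial intervals cover counting error only. Animal 3, with the highest ratio, had the lowest primary library of the 4 and the second highest secondary library. On the log2 scale the 4 ratios had a mean of 2.65 and an SD of 0.445.

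**Figure D1:**
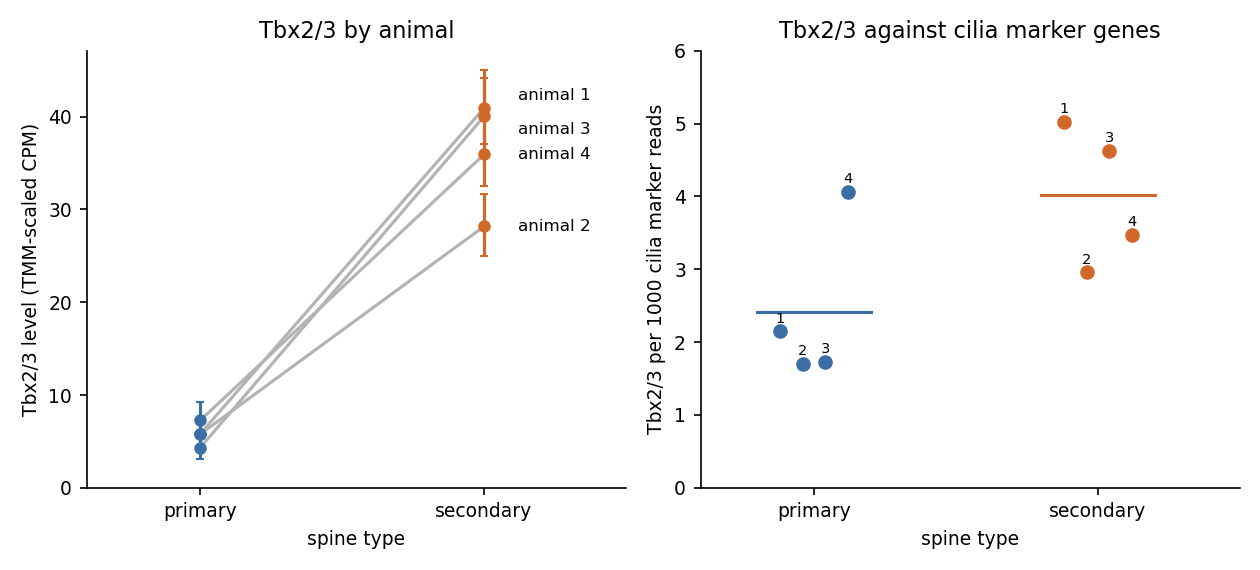
Left, Tbx2/3 level in TMM-scaled CPM (vertical axis from 0) in primary and secondary libraries; error bars are 95% Poisson counting intervals and grey lines join the libraries of 1 animal. Right, Tbx2/3 reads per 1000 reads of cilia marker genes, with the animal's number above each point and a line at the group mean; the groups are apart on the left (4.32 to 7.26 against 28.2 to 40.9 CPM) and overlap on the right.

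Within each spine type, Tbx2/3 varied less between libraries than the median gene. Its coefficient of variation over libraries was 20.7% in primary and 16.03% in secondary spines, against medians of 29.4% and 26.2% over all tested genes. Among genes of like abundance, within 0.8 to 1.25 times its mean CPM, the median was 36.0% in primary spines (1749 genes) and 19.0% in secondary spines (1565 genes). Counting error alone would give 13.5% and 5.16%. Animal 2 was the lowest of the secondary libraries, and animal 3 the lowest of the primary ones, so no animal was low in both.

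Set against other genes per unit of length, the rank of Tbx2/3 differed between spine types. The deposited FPKM (fragments scaled to gene length and library size) were 1.14, 1.13, 0.853 and 1.41 in primary libraries 1 to 4. They were 7.96, 5.51, 7.71 and 7.01 in secondary libraries 1 to 4. Among all 22667 protein-coding genes, those without reads included, these levels exceeded 37.0 to 43.7% of genes in primary libraries and 65.9 to 74.2% in secondary libraries. By FPKM the gene thus moved from below the middle of the ranking in each primary library to above it in each secondary library.

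The deposited table places Tbx2/3 on the minus strand of chromosome 2 of assembly Lvar_3.0, from 54787785 to 54823321. It spans 35537 bases, with a gene length of 5057 bases in the table, and its Swiss-Prot match there is TBX2-A. No annotated gene overlaps it, so reads of an annotated overlapping or antisense gene do not enter its count. The nearest gene on the lower side ends 101534 bases away and the nearest on the higher side starts 120862 bases away. The median gap between neighbouring genes of the assembly was 6825.5 bases, and 98.3% of gaps were shorter than both gaps beside Tbx2/3.

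Of the 3 nearest genes on each side, 2 had enough reads for the test. Golgin subfamily A member 4-like LOC121408395, 227832 bases away, carries a name given to Golgi tethering proteins in vertebrates. It had 5.81, 6.58, 4.54 and 4.59 CPM in primary libraries 1 to 4 and 14.2, 18.1, 13.7 and 20.1 CPM in secondary libraries 1 to 4. It rose by 1.62 ± 0.23 log2 units in secondary spines (edgeR adjusted p = 0.00377). The DNA helicase gene Fanconi anemia group J LOC121408396, on the other side, averaged 4.51 ± 2.08 CPM against 4.05 ± 2.01 CPM (primary against secondary, SD, n = 4) and did not pass (log2 fold change -0.15 ± 0.51, edgeR adjusted p = 0.947). The other 4 neighbours held 0 to 3 reads in each group of libraries together.

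The T-box family was represented in these spines mainly by Tbx2/3. It took 55.2 to 79.4% of all reads on the 11 T-box genes in primary libraries and 85.8 to 92.6% in secondary libraries. Of the summed T-box FPKM, it made up between 39.4 and 67.9% in each primary library and between 77.9 and 88.0% in each secondary one. The 10 other T-box genes together held 111 primary and 182 secondary reads. Of these 10, 8 had a read in some library, and 2 passed the filter on low counts.

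In secondary spines the T-box gene next to Tbx2/3 in mean FPKM was TBX1-like LOC121409220, whose vertebrate namesake acts in the pharynx. Its FPKM were 0.0450, 0.501, 0.178 and 0.354 in primary libraries 1 to 4 and 0.524, 0.680, 0.573 and 0.183 in secondary libraries 1 to 4. All its primary values lay below the lowest primary value of Tbx2/3, and all its secondary values below the lowest secondary one. TBX1-B-like LOC121409219 had 0.270 ± 0.106 FPKM in primary and 0.313 ± 0.106 FPKM in secondary spines (SD, n = 4). It and TBX1-like LOC121409220 overlapped in both spine types, and in primary spines their means were almost equal (0.269 FPKM for TBX1-like), so their order was within the spread.

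In the comparison of spine types, 7.81% of the 16788 tested genes were called at an edgeR adjusted p below 0.05 (987 or 5.88% higher and 324 or 1.93% lower in secondary spines). That fit left out the pairing of both spine types within an animal. With the replicate number as a block, which takes the pairing in, 2077 or 12.4% were higher and 1964 or 11.7% lower. The excess of genes called higher was thus far smaller with the block. Scaled by library size alone, without the block, 1225 were higher and 168 lower. Of the 2 tested T-box genes other than Tbx2/3, 0 were called by edgeR, by edgeR with the replicate block or by DESeq2, and 0 had an unadjusted edgeR p below 0.05. The log2 fold change was 0.85 ± 0.72 for TBX1-like LOC121409220 (edgeR adjusted p = 0.642) and 0.21 ± 0.50 for TBX1-B-like LOC121409219 (edgeR adjusted p = 0.914). Their median of 0.53 stood beside -0.03 over all tested genes. These genes had 25 to 49 reads per spine type, which leaves wide errors.

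TBX5-like LOC121409182, named after a vertebrate factor of limb and heart and matched to TBX2b in the deposited table, had 1, 0, 0 and 2 reads in primary libraries 1 to 4. It had 30, 1, 6 and 6 reads in secondary libraries 1 to 4, so most of its reads came from animal 1. The ratio of the pooled reads, corrected for library size, was 13.2 (95% counting interval 4.21 to 66.3). Fitted without the filter, where 4.83% of 23786 genes were called (3.73% higher), it did not pass (log2 fold change 3.50, edgeR adjusted p = 0.233). TBX3-like LOC121408458 had 1 primary and 11 secondary reads, of which 10 lay in secondary library 4. LOC121425689, uncharacterized by name and matched to TBX5, had 6, 17, 0 and 11 reads in primary and 6, 11, 0 and 5 reads in secondary libraries 1 to 4. Animal 3 thus had no read of it in either spine type, and the groups overlapped.

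The remaining T-box genes were at or near 0. Another TBX1-like gene, LOC121409221, had 7 reads in each spine type. Brachyury LOC446151, a factor of the blastopore and gut in sea urchin embryos, had 2 reads in all, both in primary library 2. T-box protein 1-like LOC121422001 had 2 reads in secondary library 4. LOC121409715 and the pseudogene LOC121409754, both matched to TBX20, had none. Among the 11 T-box genes, 8 lie on chromosome 2, which holds 10.5% of all genes, and all 8 are on its minus strand, as are 50.1% of that chromosome's genes. Tbx2/3 and TBX3-like share that chromosome with the TBX1-like and TBX5-like genes.

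**Figure D2:**
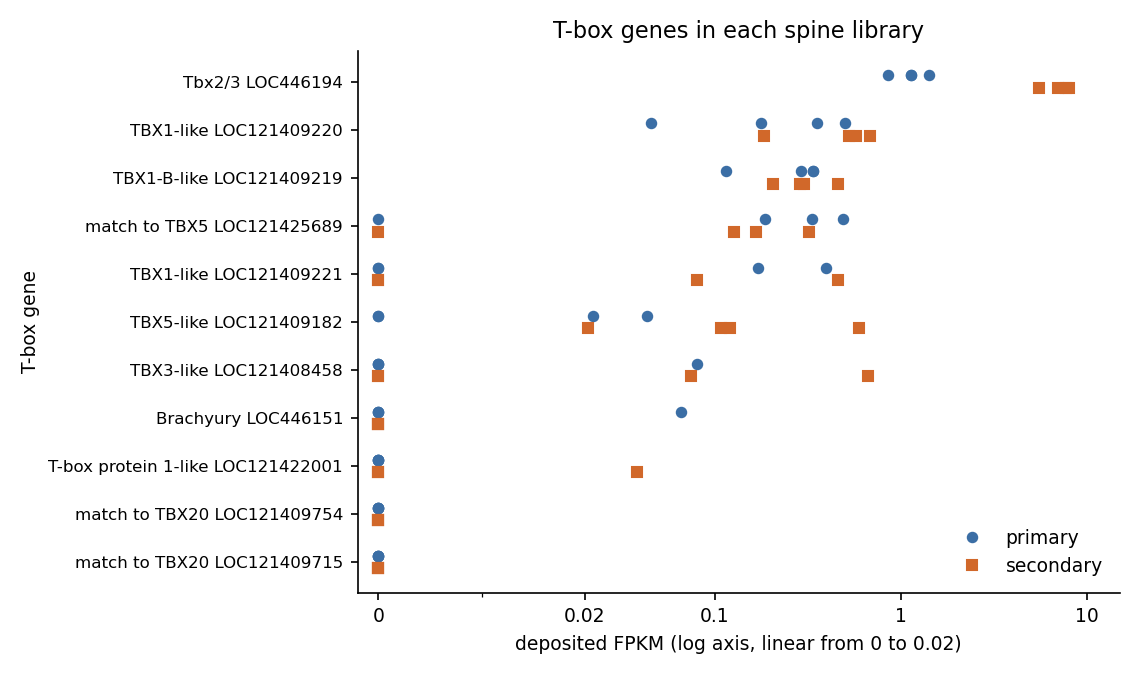
Deposited FPKM of the 11 T-box genes (horizontal axis, logarithmic above 0.02 and linear from 0 to 0.02) in each of 4 primary (circles) and 4 secondary (squares) libraries. Tbx2/3 at the top has 0.853 to 1.41 FPKM in primary and 5.51 to 7.96 FPKM in secondary libraries, while every other T-box gene is at 0.680 FPKM or below in every library.

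The ligands of the BMP and TGF-beta family did not move as 1 group beside Tbx2/3. Of 12 ligand genes, 7 passed the filter, 1 rose, 1 fell and 5 did not pass, with a median log2 fold change of -0.12 against -0.03 over all tested genes. In that fit 5.88% of all tested genes were called higher and 1.93% lower. The ligand that rose passed the filter only through its secondary libraries. With the replicate number as a block, 2 were called higher and 2 lower, where 12.4% of all tested genes were called higher and 11.7% lower (24.1% in all). The 5 ligands under the filter, among them the nodal, univin and left-right determination factor genes, held too few reads to compare.

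BMP2/4 LOC446159, the embryonic inducer of tbx2/3, was present in every library of both spine types. It had 6.35, 5.78, 4.32 and 6.09 CPM in primary libraries 1 to 4 and 8.05, 5.80, 7.45 and 6.41 CPM in secondary libraries 1 to 4. The groups overlapped, and the log2 fold change of 0.30 ± 0.23 did not pass (edgeR adjusted p = 0.605). Per unit of length BMP2/4 stood above Tbx2/3 in every primary library (1.83 ± 0.286 against 1.13 ± 0.226 FPKM) and below it in every secondary library (2.23 ± 0.317 against 7.05 ± 1.10 FPKM, SD, n = 4).

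A gene named BMP2-like, LOC121432040, which the deposited table matches to the nematode BMP ligand dbl-1, followed Tbx2/3 in direction at far lower levels. It had 1, 0, 2 and 0 reads in primary libraries 1 to 4 and 32, 23, 11 and 32 reads in secondary libraries 1 to 4. The ratio of pooled reads was 30.0 (95% counting interval 9.96 to 148), and the gene was called higher in secondary spines, by 4.68 ± 0.86 log2 units (edgeR adjusted p = 0.0121). Resting on 3 primary reads, this size was 5.63 without primary library 3, which held 2 of them, and 4.31 to 4.915 without any other library, with the call kept in all 8 fits. The gene passed the filter on low counts only through its secondary libraries. Neither the call nor its persistence is therefore independent of its high level there. BMP3-like LOC121432277, whose vertebrate namesake opposes other BMPs, had 10.5, 2.99, 0.105 and 5.02 CPM in primary libraries 1 to 4. It had 42.6, 8.75, 16.6 and 23.5 CPM in secondary libraries 1 to 4. It was higher in the secondary library of every animal but overlapped between groups and did not pass (log2 fold change 2.29 ± 0.91, edgeR adjusted p = 0.209). The blocked fit called it (2.46 ± 0.56, edgeR adjusted p = 0.0291), and the log2 fold change without any single library ranged from 1.80 to 3.08.

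The ligand that went against Tbx2/3 was a growth/differentiation factor 8-like gene, LOC121423561, named after the vertebrate inhibitor of muscle growth also called myostatin. It had 53.7, 70.2, 42.6 and 38.5 CPM in primary libraries 1 to 4 and 9.02, 16.4, 24.0 and 12.2 CPM in secondary libraries 1 to 4. The groups did not overlap, as for 15.2% of all tested genes (9.47% higher and 5.69% lower in secondary spines), and the gene was called lower (log2 fold change -1.73 ± 0.33, edgeR adjusted p = 0.0136). Without secondary library 4 the log2 fold change was -1.64 and just missed the threshold (edgeR adjusted p = 0.0510), while the blocked fit (-1.77 ± 0.28, edgeR adjusted p = 0.00594) and the 4 blocked fits without 1 animal called it (edgeR adjusted p 0.00334 to 0.0316). Its neighbour of the same product name on chromosome 11, LOC121423913, had the highest FPKM of the ligands in the mean of either group, and stood in reads at 136.7 ± 28.2 CPM against 90.8 ± 31.6 CPM (primary against secondary, SD, n = 4). It did not pass (log2 fold change -0.59 ± 0.26, edgeR adjusted p = 0.259) and was called lower with the block (-0.63 ± 0.11, edgeR adjusted p = 0.00544). TGF-beta-2-like LOC121418241 (-0.45 ± 0.25, edgeR adjusted p = 0.404) and another growth/differentiation factor 8-like gene, LOC121426703 (-0.12 ± 0.92, edgeR adjusted p = 0.981), did not pass. Genes that share a product name may share reads, so the split of reads among the growth/differentiation factor 8-like genes is uncertain.

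**Figure D3:**
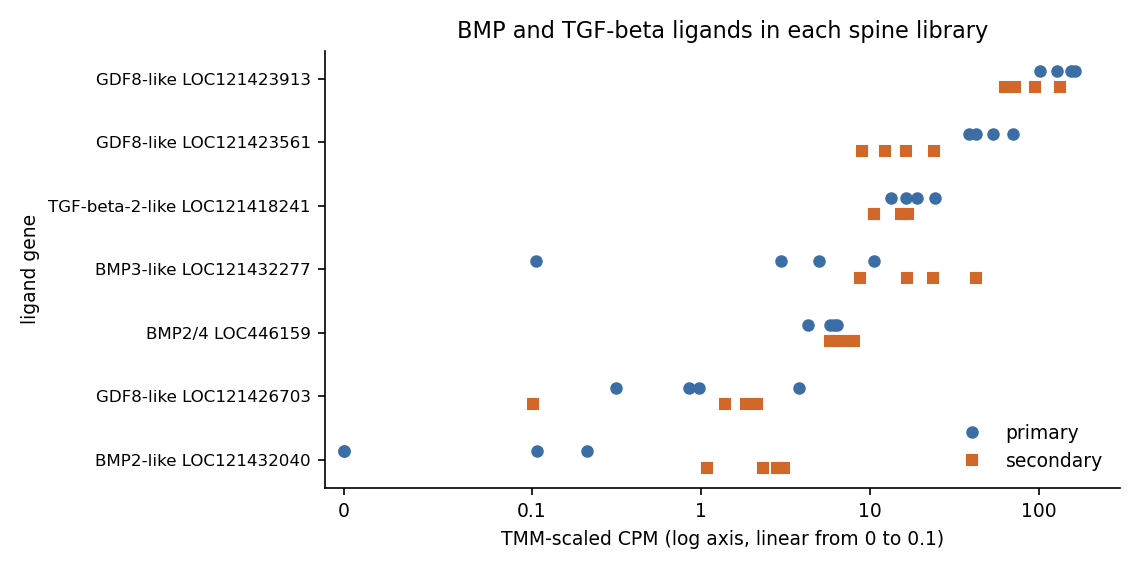
TMM-scaled CPM (horizontal axis, logarithmic above 0.1 and linear from 0 to 0.1) of the 7 BMP and TGF-beta ligand genes that passed the filter, in 4 primary (circles) and 4 secondary (squares) libraries. BMP2-like lies to the right in secondary libraries and GDF8-like LOC121423561 to the left, both without overlap, while BMP2/4 overlaps between spine types.

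Of 24 tested genes named after proteins that receive and tune BMP signals, 1 was called, where 7.81% of all tested genes were. With the block 10 were called, where 24.1% of all tested genes were. Of 11 tested receptor and Smad genes (median log2 fold change -0.13), 0 were called by edgeR, with 1 higher and 0 lower at an unadjusted p below 0.05 and 1 and 0 by DESeq2 (2 and 1 with the edgeR block, against 12.4% and 11.7% of all tested genes). DESeq2 called 8.34% of all tested genes higher and 4.57% lower. The highest FPKM, averaged over all 8 libraries, were those of the type II receptor gene BMPR2-like LOC121411232 (log2 fold change 0.33 ± 0.11, edgeR adjusted p = 0.126) and SMAD6-like LOC121411468, of an inhibitory Smad (0.49 ± 0.22, edgeR adjusted p = 0.259). Both were called higher with the block (edgeR adjusted p = 0.0211 and 0.0346). TGF-beta receptor type-2-like LOC121410051 was called lower with it (-0.51 ± 0.12, edgeR adjusted p = 0.0192). Of 13 tested antagonists and modulators (median -0.07), 0 were higher and 1 lower, with 4 and 2 at an unadjusted p below 0.05, 1 and 2 by DESeq2 and 5 and 2 with the block. The called gene was repulsive guidance molecule A-like LOC121415566, of a family of BMP co-receptors in vertebrates, at 217.7 ± 12.9 CPM against 152 ± 8.78 CPM (primary against secondary, SD, n = 4, log2 fold change -0.52 ± 0.10, edgeR adjusted p = 0.0126). That call was lost when libraries were scaled by size alone (edgeR adjusted p = 0.0725). Kielin/chordin-like LOC121432013 and LOC121432205 were among the modulators called higher with the block (edgeR adjusted p = 0.0316 and 0.00244). The deposited table matches them to thyroglobulin and FRAS1, so their place on this list is uncertain. Also called higher with the block were chordin-like protein 1 LOC121429913, SMURF2-like LOC121423271 and twisted gastrulation-like LOC121407801 (edgeR adjusted p = 0.0174, 0.0196 and 0.0345). Called lower with it were the repulsive guidance molecule gene and bone morphogenetic protein 1 homolog LOC121405581 (edgeR adjusted p = 0.00472 and 0.00395).

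Genes that share the aboral territory with tbx2/3 in sea urchin embryos were looked up by name, among them iroquois, Msx and Hox7 homeobox genes. Of 4 tested (median log2 fold change 0.18), 1 rose and 0 fell (0 lower at an unadjusted p below 0.05 and 0 by DESeq2). Among all tested genes, 5.88% were called higher and 1.93% lower. Iroquois IRX-4-like LOC121407483, also on chromosome 2, had 1.61, 3.89, 1.69 and 5.88 CPM in primary libraries 1 to 4 and 27.6, 18.9, 16.6 and 17.9 CPM in secondary libraries 1 to 4. Its difference of 2.63 ± 0.45 log2 units (edgeR adjusted p = 0.00861) stood beside the 2.64 ± 0.21 of Tbx2/3. Its groups did not overlap, as for 9.47% of all tested genes in this direction. The deposited table matches this gene to iroquois IRX-6, so whether it is the iroquois gene of the aboral territory is uncertain. Irx-3-like LOC121431291, MSX-2-like LOC121425090 and Hox-B7-B-like LOC121410692 had log2 fold changes of -0.12 ± 0.32, -0.28 ± 0.20 and 0.49 ± 0.50 and did not pass (edgeR adjusted p = 0.927, 0.546 and 0.725). The deposited table matches Irx-3-like LOC121431291 to the homeobox protein TGIF1, so its place among the iroquois genes, and in the median of this list, is uncertain.

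Of 4 tested genes on the list drawn up for the opposite, oral side, 2 were called higher and 1 lower. Of all tested genes, 5.88% were called higher and 1.93% lower. At an unadjusted edgeR p below 0.05, 3 of the list were higher and 1 lower. The median log2 fold change of the list was 4.40, or 3.07 with genes at 0 primary reads set at their bound. Forkhead box G1-like LOC121419215, a factor of the oral ectoderm in sea urchin embryos, averaged 245.2 ± 101 CPM against 99.9 ± 36.2 CPM (primary against secondary, SD, n = 4, log2 fold change -1.30 ± 0.32, edgeR adjusted p = 0.0460). It was lower in the secondary library of all 4 animals, by 1.02 to 1.48 log2 units, and the blocked fit gave -1.28 ± 0.10 (edgeR adjusted p = 0.000288). Without the block, 1 of 8 fits with 1 library dropped called it, the one without secondary library 3. In the 7 others the log2 fold change was -1.41 to -0.97 and the edgeR adjusted p at most 0.128. Animal 3 had the highest level in both spine types. The pair of single-minded 1-like genes LOC121413397 and LOC121413334, named after a midline factor of Drosophila, had 0 primary reads and 98 and 97 secondary reads. Against a floor of 3 reads over the primary group they were at least 29.97-fold and 29.7-fold higher (edgeR adjusted p = 0.00649 and 0.00704). They share a product name, so reads may be split between them. Both genes called higher on this list are single-minded genes, whose place in the oral ectoderm of sea urchin embryos is not certain. With 0 primary reads, both passed the filter on low counts only through their secondary libraries. They could thus be called only in that direction, and the count called higher on this list carries no weight. The remaining tested gene, single-minded 2-like LOC121425295, was higher in the secondary library of all 4 animals. It did not pass (log2 fold change 1.24 ± 0.54, edgeR adjusted p = 0.256). Single-minded genes thus also set the median of the list.

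**Figure D4:**
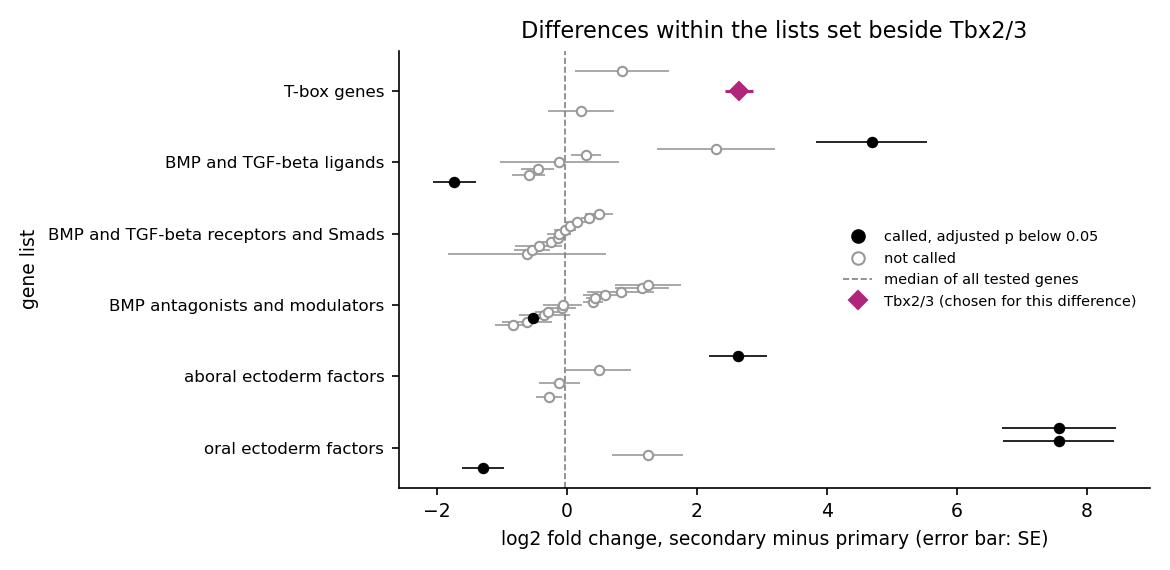
Log2 fold change (secondary minus primary, horizontal axis, with standard errors) of every tested gene of 6 lists; filled points were called at an edgeR adjusted p below 0.05, the diamond is Tbx2/3, and the dashed line is the median of all tested genes. Tbx2/3 at 2.64 lies to the right of both other tested T-box genes and beside IRX-4-like at 2.63; the 2 points above 7 are single-minded genes with 0 primary reads, whose fitted value is no bound.

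Genes were also ranked by how closely their profile over the 8 libraries followed that of Tbx2/3. Likeness was the root mean square difference of log2 CPM after each gene's own mean was subtracted, over 12678 tested genes with an informative name and a mean of at least 1 CPM. The nearest was a nuclear hormone receptor gene, nhr-91-like LOC121428672, matched to the vertebrate orphan receptor NR6A1, at a difference of 0.257 log2 units. It had 28.9, 36.8, 27.5 and 46.6 CPM in primary libraries 1 to 4 and 176 to 260 CPM in secondary libraries, so it was several times more abundant than Tbx2/3 in reads. Next came LOC121418427, named after a bacterial inner membrane protein (0.264), and notch 1-like LOC121431356 (0.273), a gene named after a receptor of cell contact signalling.

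The other 5 were MYCBP-associated protein-like LOC121410247 (0.340), the membrane scaffold gene ankyrin-3-like LOC121419181 (0.352), a WD repeat gene, LOC121423004 (0.358), a bile acid cotransporter-like gene, LOC121415082 (0.366), and mediator subunit 26-like LOC121407791 (0.368). The ninth gene stood at 0.378 and the median of all ranked genes at 1.41. None of the 8 belonged to the lists of this report, and 1 lay on chromosome 2. Since the profile is ruled by the difference between spine types, all 8 were higher in secondary spines by construction of the ranking. BMP2-like LOC121432040 ranked 324th, BMP2/4 LOC446159 ranked 1799th and the growth/differentiation factor 8-like gene LOC121423561 ranked 12436th.

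**Figure D5:**
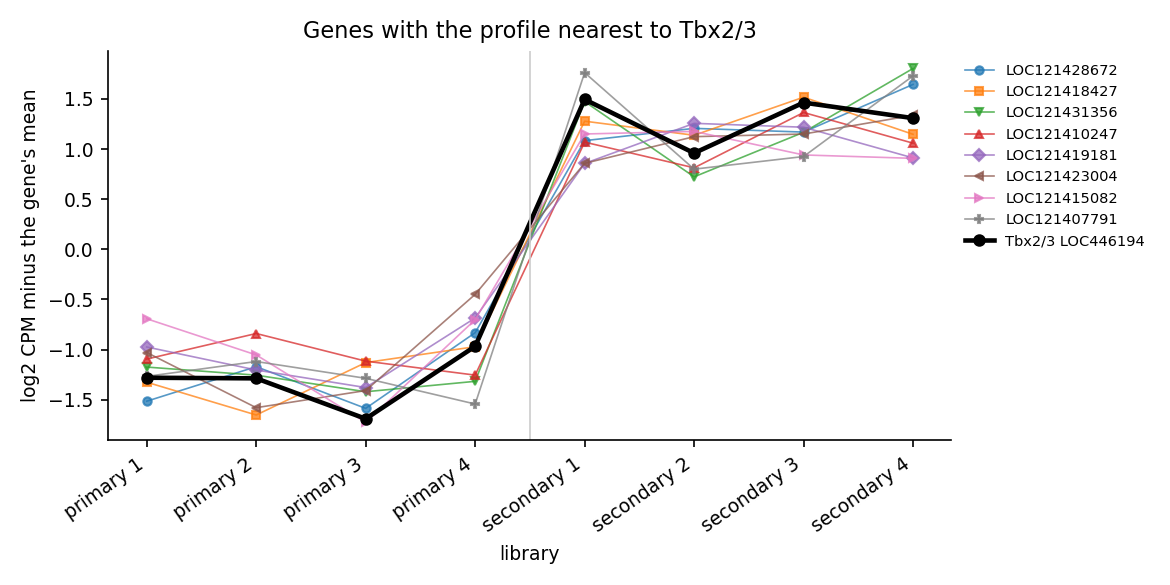
Log2 CPM minus each gene's own mean (vertical axis) in the 8 libraries for Tbx2/3 (black) and the 8 genes with the nearest profile; lines only join the points of 1 gene, and the vertical line parts primary from secondary libraries. All 9 genes lie below 0 in the primary and above 0 in the secondary libraries.

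These are libraries of whole spines, so fewer cells that express Tbx2/3 and less of its RNA per cell cannot be told apart. Markers of ciliated cells moved in the same direction. Of 109 tested cilia genes, 80 were called higher in secondary spines and 0 lower (0 lower at an unadjusted p below 0.05 and 0 by DESeq2), with a median log2 fold change of 1.70. With the block, 100 were higher and 0 lower. Of all tested genes, 5.88% were called higher and 1.93% lower, and with the block 12.4% and 11.7%. All cilia markers, 118 by name of which 5 had no read, summed to between 1790 and 3399 CPM per primary library and between 8145 and 10354 CPM per secondary library. Per 1000 cilia marker reads, Tbx2/3 had 2.15, 1.70, 1.73 and 4.06 reads in primary libraries 1 to 4 and 5.02, 2.96, 4.63 and 3.47 reads in secondary libraries 1 to 4. On that scale primary library 4 exceeded secondary libraries 2 and 4, so the groups overlapped, although the value was higher in the secondary library in animals 1 to 3. The part of ciliated cells in the difference of Tbx2/3 was not tested.

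The other marker lists are given against 7.81% of all tested genes called, and 24.1% with the block. Of 33 tested muscle genes (median log2 fold change 0.06) 5 were higher and 1 lower (8 and 6 with the block), and all muscle markers summed to 2590 to 3189 CPM (primary) and 2600 to 3539 CPM (secondary). Of 29 neuron genes (median 0.28) 1 was higher and 0 lower, with 6 and 2 at an unadjusted p below 0.05 and 3 and 2 by DESeq2 and 8 and 2 with the block, at 2488 to 3046 CPM and 2031 to 2603 CPM. Skeletogenic (14 tested, median 0.61) and pigment cell (9 tested, median -0.07) markers had 0 calls in either direction, by edgeR with or without the block or DESeq2, and 0 at an unadjusted p below 0.05. Their summed levels overlapped, at 219 to 1260 and 258 to 1630 CPM for skeletogenic and 74.2 to 162 and 79.5 to 147 CPM for pigment cell markers. Of 47 immune genes (median -0.27) 2 were higher and 2 lower (4 and 12 with the block), at 3601 to 4879 and 3247 to 5171 CPM. Of these lists 3 skeletogenic, 0 pigment, 0 muscle, 2 neuron and 4 immune genes had no read in any library.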

How the data were processed

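Poly-A RNA of 8 spine libraries was sequenced. Reads were aligned with HISAT2 2.0.5 and counted with featureCounts, per the submitters' processing notes, against assembly 3.0, per the design text; strand and multi-mapping settings are not given in the sources used here. The deposited counts are whole reads per gene for 26814 genes. The FPKM were made by the authors and are used, as deposited, only to compare genes.

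Groups came from titles. The test was edgeR 4.0.16 (glmQLFit robust, glmQLFTest, TMM, filterByExpr, group as the only term) in R 4.3.3, Benjamini-Hochberg adjusted over 16788 genes, two-sided, called below 0.05. Each standard error was derived from the fold change and its F statistic. CPM use TMM-scaled library sizes; log2 CPM use a prior count of 2. The script was tested on simulated counts.

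Both spine types came from the same 4 animals. Deviations of log2 CPM from group means correlated at 0.733 to 0.811 between same-numbered and -0.317 to -0.200 between other libraries, so the number marks an animal. The main fit left this pairing out, and the block, as an alternative, took it in. A gene that did not pass thus failed in a fit that counts differences between animals as spread.

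Lists were set by product name (T-box genes by the whole description) and members and lists were chosen with earlier results of these data known. After names and counts were seen, 12 entries were excluded from 4 lists. Named genes were Tbx2/3, all T-box genes, tested ligands, up to 4 called genes of each other pathway list (or the 2 most abundant), the 8 nearest profiles and the 3 nearest neighbours per side. The uncalled aboral factors, and receptor and modulator genes called only with the block, were named as well, after their values were seen. Alternatives were the block, DESeq2 1.42.0 with and without it, RLE or library size scaling, no filter, original or wider name patterns, and leaving out each library or animal. No sequence is shown.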

Additional observations from a re-analysis of the deposited data

Results flagged for a closer look

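Of 54 groups of 4 libraries examined for the genes named by rule (those with 10 or more reads in a library), 3 held a library far from the others. Chance alone flags about 1 group in 20. TBX3-like LOC121408458 had 0.8785 CPM in secondary library 4, against 0 to 0.0993 CPM in the other secondary libraries. Forkhead box G1-like LOC121419215 had 395.6 CPM in primary library 3, against 181.4 to 215.7 CPM in the others, and 153.5 CPM in secondary library 3, against 77.4 to 89.7 CPM. Both of these libraries came from animal 3. Tbx2/3 itself had no such library in either spine type.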

How the results depend on the processing

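The log2 fold change of Tbx2/3 kept its direction in every alternative run and ranged from 2.50 to 2.81. It was 2.64 with the replicate block, 2.81 with scaling by library size, 2.64 from deposited FPKM, and 2.52 to 2.77 with 1 library left out. Scaling by library size raised the median of all tested genes by 0.165 (log2). Of all tested genes, 987 were called higher in secondary spines, against 2077 with the replicate block and 2106 with DESeq2 and the block; the count was 718 to 877 without 1 library and 1402 to 1826 without 1 animal and with the block (1536 without animal 2, 1644 without animal 3). The 324 called lower became 1964 with the block, 767 with DESeq2, 1990 with DESeq2 and the block and 168 with library sizes. That count was 158 without secondary library 4, 170, 186 and 204 without secondary libraries 2, 1 and 3, 183 without primary library 1, at most 254 without any 1 library, and 977, 1072, 1220 and 1395 without animals 1 to 4 and with the block. The cause of these shifts was not tested.

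Counts of list members moved as follows. Ligands went from 1 higher and 1 lower to 2 and 2 with the block, with or without DESeq2; the count lower was 0 without secondary library 4, and without 1 animal, with the block, up to 2 were higher and 2 lower. Receptors and Smads went from 0 and 0 to 2 and 1 with the block (edgeR or DESeq2), and to 1 higher with DESeq2 or library sizes; without 1 animal, with the block, 0 to 1 were higher and 0 to 1 lower. Antagonists went from 0 higher and 1 lower to 5 and 2 with the block (edgeR or DESeq2), 1 and 2 with DESeq2, and 1 and 0 with library sizes. They had 2 lower without primary library 1 or 2, and without 1 animal, with the block, 1 to 4 higher and 2 to 3 lower. The oral factor called lower, forkhead box G1-like LOC121419215, kept its direction and was called in every fit with the block (edgeR adjusted p 0.000288 to 0.00344). Without the block its call was lost (0) with library sizes (-1.15), without the filter (-1.30) and without any 1 library other than secondary library 3 (-1.41 to -0.97). Oral factors called higher numbered 2 in the main fit and 3 without animal 4 and with the block. The counts of other T-box genes (0 higher, 0 lower) and of aboral factors (1 higher, 0 lower) did not change in any alternative. TBX1-B-like LOC121409219 turned to -0.03266 without primary library 1 and -0.02334 without secondary library 2 (at most 0.3686 without 1 library). Growth/differentiation factor 8-like LOC121426703 turned to 0.1325 with the block, 0.3888 with DESeq2 and the block, 0.06863 with library sizes, 0.9331 and 0.2631 without primary or secondary library 2 (lowest -0.4581 without 1 library), and 1.353 without animal 2 and with the block. Ranked by deviations from group means instead of the whole profile, 0 of the 8 genes most like Tbx2/3 were shared. Genes under about 25 reads per spine type are limited by depth.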

Other observations

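When the difference between spine types was removed and genes were ranked by how their libraries deviated from the group means, BMP2/4 LOC446159 stood 5th of 12678 genes in likeness to Tbx2/3, at a root mean square difference of 0.110 log2 units. BMP2/4 was picked out after its values were seen. The nearest gene was GATOR complex protein MIOS-like LOC121426260, at 0.0497. The other ligands in this ranking stood from 4530th to 12194th, with BMP2-like LOC121432040 at 10007th. The root mean square deviation from the group means was 0.235 for Tbx2/3 and 0.194 for BMP2/4, against a median of 0.328 over the ranked genes. A link between the 2 genes was not tested. In primary libraries 1 to 4 the deviations of Tbx2/3 were 0.03, 0.02, -0.38 and 0.34, and those of BMP2/4 were 0.18, 0.05, -0.35 and 0.12. In secondary libraries 1 to 4 they were 0.19, -0.35, 0.16 and 0.00 for Tbx2/3 and 0.22, -0.24, 0.11 and -0.10 for BMP2/4. Both genes were lowest in the same libraries, primary 3 and secondary 2. Counting alone would give BMP2/4 a coefficient of variation of 13.6% in primary and 11.8% in secondary spines, near the observed 16.04% and 14.6%, so its deviations are close in size to its counting error.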
